A study of Arabidopsis thaliana with 12 samples.

Results

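The interaction of abscisic acid (ABA) and the small molecule DFPM was measured in all 12 of the 12 arrays of the study, which form a full set of 4 groups with 3 arrays each. For every probe set the interaction was the ABA effect in the presence of DFPM minus the ABA effect in its absence, that is (ABA+DFPM minus DFPM) minus (ABA minus control), on the log2 scale. The same number is the distance between the measured mean with both agents and the additive expectation, ABA + DFPM - control. Of 22746 probe sets for genes, 14401 reached log2 4 on at least 3 arrays and were tested. Of these, 9526 had all 4 group means and the additive expectation between log2 5 and 12 and are called in the range. The other 4875 had a mean or an expectation beyond those limits, where a sum of log2 changes can run past the lowest (2.14) or highest (15.56) value on the arrays.

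The samples were whole seedlings of Arabidopsis thaliana, ecotype Col-0, grown on plates for 12 days and then moved to 6-well plates. Control seedlings received DMSO solvent at 1:5000, and no treatment time is given for them. The ABA group received 10 µM ABA for 6 h, the DFPM group 30 µM DFPM for 6 h, and the combined group both agents, with DFPM placed 30 min ahead of ABA. DFPM is a synthetic compound whose name joins a dichlorophenyl ring, a furan and a piperidine. RNA was hybridised to Affymetrix ATH1 arrays, on which a probe set stands for 1 or more genes.

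ABA is the plant hormone of drought, cold and seed maturation. It binds receptors of the PYR/PYL family, which hold back PP2C phosphatases and so free SnRK2 kinases to switch on genes for protective proteins such as late embryogenesis abundant (LEA) proteins. DFPM is known from chemical screens to dampen ABA responses in Arabidopsis and to start signalling that resembles immune signalling. The design therefore asks, gene by gene, whether the 2 agents together give the sum of their separate effects. An interaction below 0 means a level under that sum and an interaction above 0 a level over it, whatever the direction of each single effect.

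The replicate numbers in the titles run from 1 to 3 in every group, and arrays numbered 3 stood apart from those numbered 1 and 2. The median distance of a value from its group mean was 0.197, 0.191 and 0.327 on the log2 scale for numbers 1, 2 and 3. Results are therefore given for a limma model of all 12 arrays, for the same model with the number as a block, and for numbers 1 and 2 alone. Whether the 3 arrays of a group stand for separately treated seedlings is not stated, so a p-value here reflects the spread among these samples, part or all of which may be technical. With 3 arrays per group, the number of arrays limits the precision. The seedlings expressed genes of the chloroplast and of the root: the light-harvesting gene LHCB4.2 had group means of 9.02 to 11.95 and EXPA7, an expansin of root hairs, 5.51 to 6.62. In whole seedlings, fewer cells of a type and less RNA per cell cannot be told apart. The 3' minus 5' log2 difference of the ubiquitin control probes, a sign of RNA integrity, was 1.03 to 1.29 in control and 1.04 to 1.25 with DFPM, and 0.61 to 0.82 with ABA and 0.73 to 0.97 with both. Its own interaction was 0.12, 0.16 and 0.10 for numbers 1, 2 and 3, and that of the actin control probes was -0.46, 0.10 and 0.34. Their part in the results was not tested.

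Most probe sets in the range lay near the additive expectation. The median interaction was -0.01, the middle 50% ran from -0.25 to 0.22, and 80.5% lay under 0.5 in size. An interaction of at least 1 in size was measured for 382 probe sets (4.01%), 137 positive and 245 negative. The median size of the interaction was 0.233, against 0.479 for the ABA effect and 0.469 for the DFPM effect in the same probe sets. The precision bounds how far additivity can be read: the median standard error was 0.391, or 0.272 with the number as a block. The 95% confidence interval lay wholly within 1 of additivity for 3626 probe sets (38.1%), or 5768 (60.6%) with the number as a block. Standard errors given with ± for single interactions are from the model without the block, unless stated. Outside the range 51.2% of interactions were under 0.5 in size and 21.8% were at least 1, with a median standard error of 0.583. The interaction is the difference between the mean with both agents and the expectation, and the range rule uses both levels. A large interaction can thus by itself place a probe set outside the range, so the contrast of inside and outside is a description.

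The limma model of all 12 arrays, adjusted by the Benjamini-Hochberg method over all 14401 probe sets, called 54 interactions at an adjusted p under 0.05 (0.375%), 22 positive (0.153%) and 32 negative (0.222%). Only 1 of them lay in the range (0.0105% of 9526) and 53 outside it (1.09% of 4875). As the range rule uses the expectation and the mean with both agents, these shares are not independent of the interaction and are a description. At an unadjusted p under 0.05 the range held 327 (3.43%), 88 positive (0.924%) and 239 negative (2.51%). With the number as a block, limma called 202 interactions in all (1.4%), 30 in the range (0.315%) and 172 outside (3.53%). From numbers 1 and 2 alone it called 1251 (8.69%), of which 411 of 9403 lay in the range (4.37%). When numbers 1 and 2 were averaged and the number kept as a block, no interaction was called by limma, and 924 (6.42%) had an unadjusted p under 0.05. The sign also depended on the scale: with values returned to the linear scale, 14.8% of the interactions in the range had the opposite sign, as had 2 of the 54 called.

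**Figure D1:**
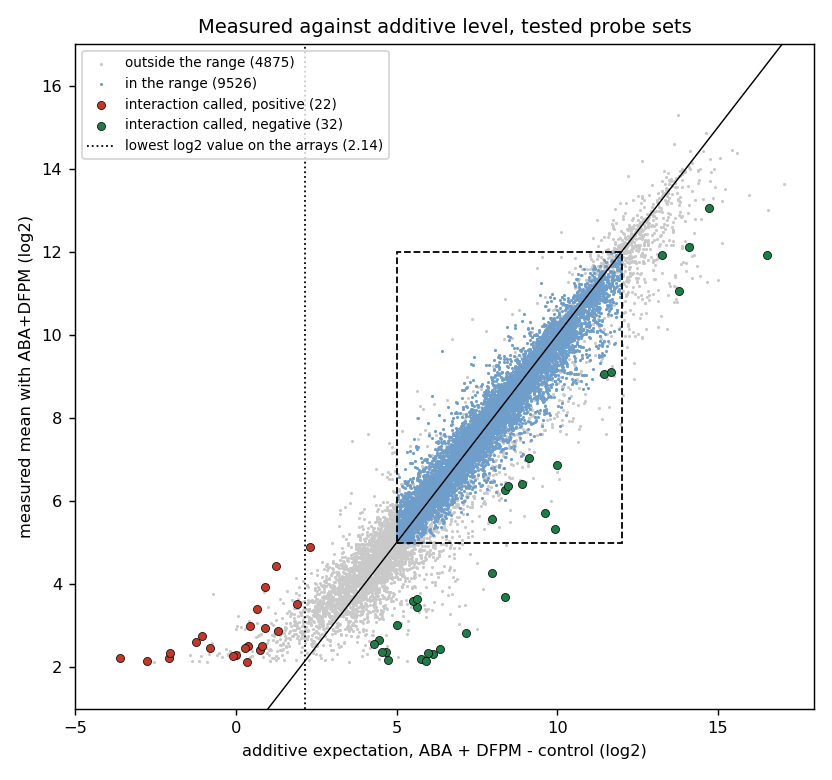
Measured mean log2 level with ABA+DFPM (vertical axis) against the additive expectation (horizontal axis) for the 14401 tested probe sets, with the line of equality, the range of log2 5 to 12 as a dashed box and the lowest value on the arrays (2.14) as a dotted line. Positive calls (22) lie at expectations of 2.31 or less, and negative calls (32) lie at expectations from 4.31 to 16.53.

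The interaction computed separately for each replicate number uses 4 arrays that no other number shares. In the range, these 3 sets of interactions, from arrays that do not overlap, correlated across probe sets with r = 0.60 for numbers 1 and 2, 0.38 for 1 and 3 and 0.40 for 2 and 3. This is a description over 9526 probe sets that are not independent of each other, and the arrays numbered 1 and 2 also deviated together from their group means (r 0.38 to 0.701 over 12 pairs of arrays from different groups). Deviations within a group sum to 0, so a shift shared by the arrays numbered 3 alone would also give such values. The sign was the same in all 3 numbers for 44.2% of probe sets in the range. Of the 411 interactions called in the range from numbers 1 and 2, 350 (85.2%) had the same sign in number 3, which had no part in that call, against 62.2% of all probe sets in the range. Their median size was 1.16 in numbers 1 and 2 and 0.63 in that direction in number 3. Negative calls numbered 279 and positive calls 132.

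The 1 interaction called in the range belonged to a probe set that has no gene name here and was singled out after its values were seen. Its log2 values were 5.35, 5.41 and 5.22 in control and 8.14, 8.57 and 8.70 with ABA, in the order of the numbers. With DFPM they were 5.79, 5.95 and 7.67, and with both agents 5.66, 6.13 and 5.31. The ABA arrays stood above all others, and the arrays with both agents overlapped the DFPM arrays. Its ABA effect was 3.14 without DFPM and -0.77 with it, an interaction of -3.92 ± 0.62 (SE, limma adjusted p = 0.0293, 0.0226 with the block). The interaction was negative in all 3 numbers, at -2.92, -2.98 and -5.84, and leaving out any 1 of 9 arrays (control 1, 2 or 3, ABA 1, 2 or 3, DFPM 2, ABA+DFPM 1 or 3) ended the call, at values from -4.17 to -3.72.

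The block raised the calls in the range to 30, of which 19 were negative (0.199% of 9526) and 11 positive (0.115%). These were singled out after their values were seen. All 19 negative ones had both single-agent means above control, and 9 of the 11 positive ones had both below control. The share of all probe sets in the range with such means is not given here. The expectation also shares the control arrays with both single effects, so these counts are a description. The negative interactions ran from -3.92 to -1.04 and the positive ones from 0.97 to 2.33, and each of the 30 had the same sign in all 3 numbers. The fit with the block tests the mean of these 3 values, so a shared sign follows largely from the choice of the 30 and is no separate support. Of the 30, 18 negative and 10 positive ones were also called from numbers 1 and 2 alone, on arrays that the fit with the block used too.

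**Figure D2:**
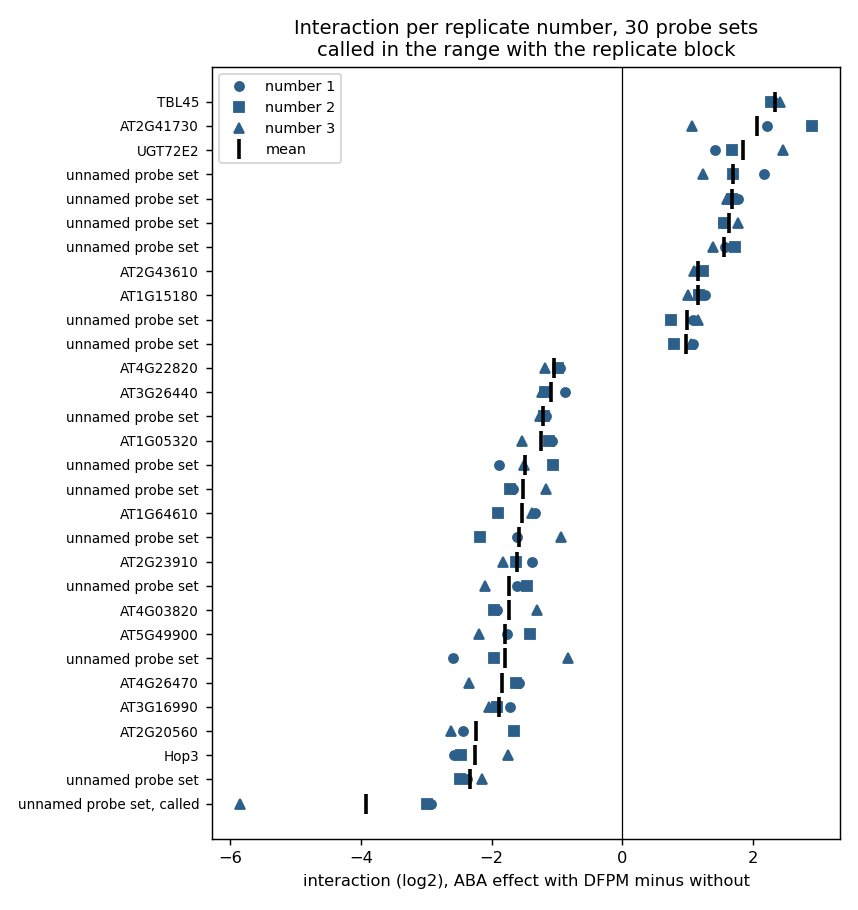
Interaction (log2) of the 30 probe sets called in the range with the replicate block, computed separately for array numbers 1, 2 and 3 (symbols) and as their mean (black bar). Each row has all 3 symbols on the same side of 0, which follows largely from the choice of these probe sets by the mean of the 3. The spread is widest for the unnamed probe set at the bottom, from -5.84 to -2.92.

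Among the named genes with a negative interaction, Hop3 encodes a co-chaperone that links Hsp70 to Hsp90. Its values were 5.41, 5.84 and 4.36 in control, 7.48, 8.05 and 6.26 with ABA, 8.54, 8.76 and 6.73 with DFPM, and 8.04, 8.49 and 6.89 with both. Each agent alone stood above control on every array of the same number, and the mean with both agents (7.81) was not above that with DFPM (8.01). The additive expectation was 10.07, an interaction of -2.26 ± 0.96, or ± 0.24 with the block. It was called with the block (limma adjusted p = 0.0036) and not without it (limma adjusted p = 0.701), and number 3 lay below numbers 1 and 2 in every group.

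AT4G03820 missed the threshold narrowly without the block (-1.73 ± 0.31, limma adjusted p = 0.0516) and passed with it (limma adjusted p = 0.0151). Its values were 5.64, 5.60 and 5.96 in control, 8.39, 7.90 and 8.19 with ABA, 6.69, 6.75 and 6.87 with DFPM, and 7.52, 7.08 and 7.79 with both. All 4 groups were separate from each other, in the order control, DFPM, both, ABA, so the level with both agents lay between the single agents. AT2G23910 had a DFPM effect of 0.06 alone and an ABA effect of 2.92, which was 1.32 in the presence of DFPM. Its values were 6.70, 6.18 and 6.81 in control, 9.54, 9.20 and 9.74 with ABA, 6.46, 6.55 and 6.87 with DFPM, and 7.91, 7.94 and 7.98 with both. The interaction of -1.61 ± 0.31 was called with the block (limma adjusted p = 0.018) and not without it (limma adjusted p = 0.0641).

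A different pattern was seen for AT4G26470 and AT1G64610, whose means with both agents lay above each single agent and yet under the sum. The means of AT4G26470 were 5.71 in control, 7.97 with ABA, 8.61 with DFPM and 9.03 with both, where the sum predicted 10.88. Its interaction was -1.85 ± 0.40 (limma adjusted p = 0.0997, and 0.00906 with the block). AT1G64610 had means of 6.91, 8.95, 9.26 and 9.76 in the same order against a predicted 11.30, an interaction of -1.54 ± 0.32 (limma adjusted p = 0.091, and 0.0229 with the block). AT5G49900 had 5.38, 9.21, 6.31 and 8.35, an interaction of -1.79 ± 0.43 (limma adjusted p = 0.171, and 0.035 with the block). These loci carry no gene symbol here, and no role is given for them.

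**Figure D3:**
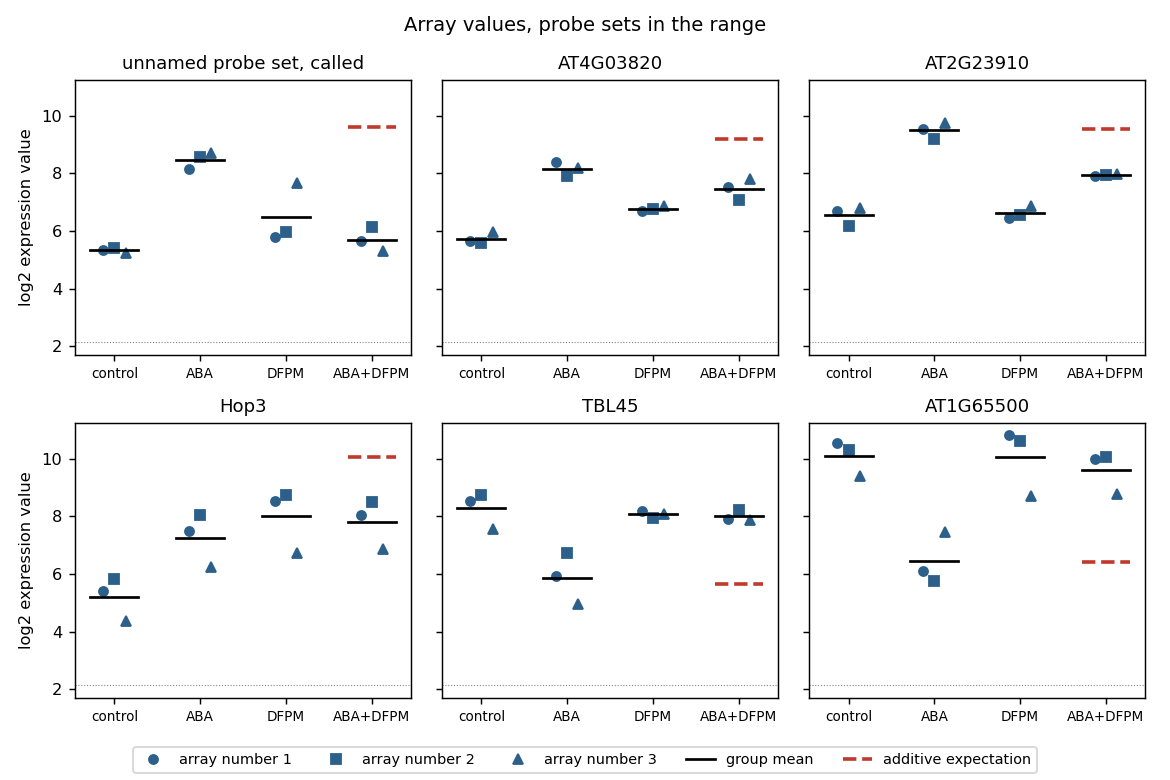
Log2 expression values of 6 probe sets in the range, by group, with 1 symbol per array number, the group mean as a black bar and the additive expectation as a dashed red bar. In the panels of the unnamed called probe set, AT4G03820, AT2G23910 and Hop3 the values with ABA+DFPM lie below the expectation, and in those of TBL45 and AT1G65500 they lie above it.

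Among the positive interactions, TBL45 belongs to the TRICHOME BIREFRINGENCE-LIKE family, several members of which add acetyl groups to wall polymers. Its values were 8.54, 8.74 and 7.56 in control and 5.94, 6.74 and 4.96 with ABA. With DFPM they were 8.19, 7.94 and 8.08, and with both agents 7.92, 8.21 and 7.89. The ABA arrays lay below all others, and arrays with both agents overlapped those with DFPM alone. The ABA effect was -2.40 without DFPM and -0.07 with it, an interaction of 2.33 ± 0.60 (2.33, 2.27 and 2.41 by number; limma adjusted p = 0.21, and 0.0495 with the block).

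UGT72E2, an enzyme that attaches glucose to lignin precursors, differed strongly between numbers. Its values were 7.26, 7.25 and 10.44 in control, 5.63, 5.35 and 7.57 with ABA, 6.54, 6.33 and 9.56 with DFPM, and 6.32, 6.10 and 9.14 with both. Number 3 was the highest array of each group, and the interaction of 1.85 ± 1.71 had a limma adjusted p of 1 without the block and 0.0348 with it, where the standard error was 0.33. AT2G43610 had an interaction of 1.15 ± 0.66 (1.14, 1.23 and 1.09 by number), called with the block (limma adjusted p = 0.0281) and not without it (limma adjusted p = 0.94). AT1G65500 had the highest interaction in the range, 3.20 ± 0.91, with control at 10.56, 10.32 and 9.39 and ABA at 6.11, 5.78 and 7.47. Its values with DFPM were 10.81, 10.61 and 8.72 and with both 10.00, 10.05 and 8.77, so that only the ABA arrays stood apart. It was called from numbers 1 and 2 alone (limma adjusted p = 0.000455), and neither without the block (limma adjusted p = 0.287) nor with it (limma adjusted p = 0.128), where number 3 gave 1.97 against 3.64 and 3.98.

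Further named genes in the range did not pass in the model without the block and are given by their values. They were taken by the smallest unadjusted p of the same interaction in that limma model. Agreement of the 3 numbers thus follows in part from that choice and is no separate support. On the negative side AT1G33030 had an interaction of -1.66, AT1G77890 -1.44, AT1G08230 -1.26, ATCRT1 -1.20, AT1G26690 -1.05, AT4G22820 -1.04 and AT5G40960 -0.94, each negative in all 3 numbers. Of these AT4G22820 was called with the block (limma adjusted p = 0.0462). On the positive side AT5G40450 had 1.55, AT1G51790 1.49, AT2G37470 1.17, TBL37 1.01, the homeodomain-leucine zipper factor HAT2 0.93, AT5G46780 0.92, AT3G58830 0.70, AT5G49470 0.68, AT3G43590 0.67 and AT5G06110 0.57, each positive in all 3 numbers, and none was called with the block.

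Further genes with a symbol of their own, chosen after the annotation was seen, are given by their values, and TBL38, SWEET17, OCT4, RALFL32, SERPIN1, PSY1R, BIM1, PLIM2b and CPNIFS were called neither with nor without the block. TBL38, of the TRICHOME BIREFRINGENCE-LIKE family, had -1.62 ± 0.52, with means of 8.01 in control, 9.24 with ABA, 8.52 with DFPM and 8.13 with both. SWEET17, a fructose transporter of the vacuole, had -1.50 ± 0.40: its mean of 5.69 with both agents was below control (6.48), ABA (6.93) and DFPM (6.74). The organic cation transporter OCT4 had -1.04, the peptide hormone gene RALFL32 -1.03 and the protease inhibitor SERPIN1 -0.73. PSY1R, a receptor kinase for a sulfated peptide, had 0.71, BIM1, a brassinosteroid signalling factor, 0.70, the actin-binding LIM protein PLIM2b 0.99 and the cysteine desulfurase CPNIFS 0.55.

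Outside the range the positive calls had one shape. All 22 (0.451% of 4875) had a mean or an expectation under log2 5, and for 21 of them both single agents lay below control and the additive expectation lay below 2.14, a level at which no array has a value. Among the tested probe sets 204 had such an expectation. BCAT4, the aminotransferase that opens the chain elongation of methionine for aliphatic glucosinolates, had an interaction of 4.91 ± 0.61 (limma adjusted p = 0.00679). Its values were 6.52, 7.35 and 8.66 in control, 2.88, 2.27 and 2.32 with ABA, 2.28, 2.15 and 2.34 with DFPM, and 2.15, 2.14 and 2.15 with both. All 3 treated groups had values close to the lowest on the arrays and the expectation was -2.77, so the size of this interaction follows the height of control above that lowest value and measures no level.

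AT1G14960 (3.02 ± 0.25, limma adjusted p = 0.000526) and AT5G62280 (3.19 ± 0.45, limma adjusted p = 0.0151) had the same shape, with means of 3.87 to 4.46 in all 3 treated groups and 6.94 and 7.35 in control. The call of AT5G62280 ended when any 1 of 6 arrays was left out (control 2, ABA 1 or 2, DFPM 1 or 2, ABA+DFPM 1), at values from 3.00 to 3.17. AT2G10940 had values of 10.80, 11.29 and 10.73 in control, 8.03, 8.72 and 8.40 with ABA, 3.34, 3.34 and 3.03 with DFPM, and 3.56, 3.34 and 3.32 with both. The DFPM arrays and those with both agents overlapped, and the expectation was 0.67 (2.73 ± 0.32, limma adjusted p = 0.00393).

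The exception was AT2G43580, the 1 positive call with an expectation above the lowest value on the arrays, at 2.31 against 2.14. Its values were 2.14 on all 3 control arrays, 2.16, 2.14 and 2.16 with ABA, and 2.16, 2.16 and 2.56 with DFPM. With both agents they were 4.83, 4.76 and 5.11, above every array of the other groups. The interaction was 2.59 ± 0.23 (limma adjusted p = 0.00115), with 2.65, 2.60 and 2.52 by number, and it was called whichever single array was left out. The level of 4.90 with both agents is low on these arrays. The control, ABA and DFPM means lay at or close to the lowest value, where a lower level cannot be read. The single effects and the size of this interaction therefore rest on that floor.

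The negative calls had other positions. The shares of all tested probe sets at these positions are not given here, so the counts that follow are a description. Of the 32, 25 had a control mean under log2 4, 31 had an ABA mean above control, and 22 had an expectation between 5 and 12, 19 of them with a control mean under log2 4. Of the other expectations 5 lay over 12 and 5 under 5 yet above the lowest value. In 16 of the 32 the mean with both agents was within 1 of control. AT4G21650 was one of these: its values were 2.28, 2.93 and 2.36 in control, 6.76, 6.61 and 6.44 with ABA, 2.18, 2.43 and 2.18 with DFPM, and 2.56, 2.59 and 2.18 with both. The ABA effect was 4.08 without DFPM and 0.18 with it, and the interaction was -3.90 ± 0.30 (limma adjusted p = 0.000526). AT5G42290 had 2.15 in control, 5.88 with ABA, 2.38 with DFPM and 2.32 with both (-3.80 ± 0.37, limma adjusted p = 0.00152). AT1G27461 had 2.14, 5.96, 2.14 and 2.35 in the same order (-3.62 ± 0.57, limma adjusted p = 0.0293), a call that ended when any 1 of 8 arrays was left out (control 1 or 2, ABA 1, DFPM 1, 2 or 3, ABA+DFPM 1 or 2), at values from -3.62 to -3.51. The control and DFPM means of AT4G21650, AT5G42290 and AT1G27461 lay at or close to the lowest value on the arrays, where a lower level cannot be read, so the ABA effects of these 3 genes rest on that floor.

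AT4G34320 kept part of its ABA effect: its values were 2.54, 2.69 and 3.18 in control, 7.41, 7.61 and 7.71 with ABA, 2.85, 3.26 and 3.48 with DFPM, and 3.74, 4.48 and 4.61 with both. The ABA effect was 4.77 without DFPM and 1.08 with it (interaction -3.69 ± 0.39, limma adjusted p = 0.00218). The control and DFPM means of AT4G34320 (2.80 and 3.20) were low, near the lowest value on the arrays, so these effects may rest in part on that floor. AT1G07690 ran the other way round, with a DFPM effect that was smaller in the presence of ABA. Its values were 2.82, 2.43 and 2.42 in control, 2.43, 2.55 and 2.43 with ABA, 6.81, 6.76 and 8.14 with DFPM, and 3.10, 2.72 and 2.64 with both. The DFPM arrays stood above all others, and the DFPM effect was 4.68 without ABA and 0.35 with it (interaction -4.33 ± 0.48, limma adjusted p = 0.00273). The control and ABA means of AT1G07690 (2.56 and 2.47) lay close to the lowest value on the arrays, so its DFPM effects rest on that floor too. The calls of AT4G21650, AT5G42290, AT4G34320 and AT1G07690 held whichever single array was left out.

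**Figure D4:**
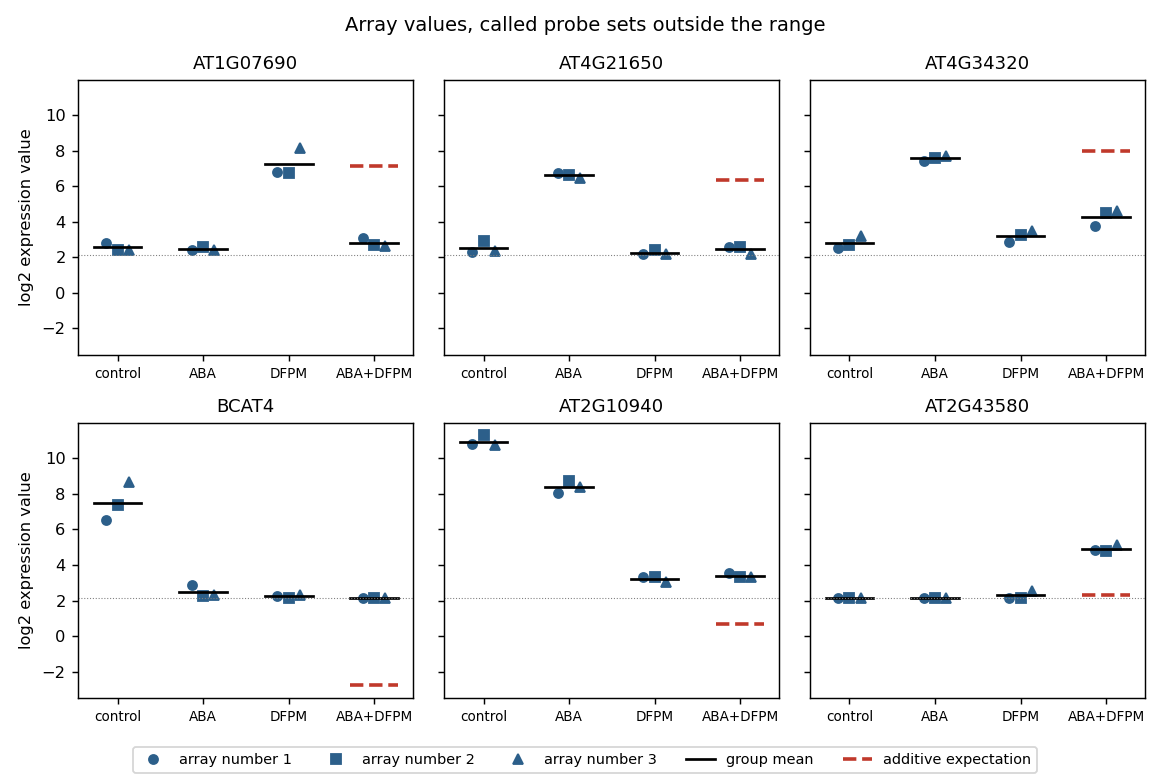
Log2 expression values of 6 called probe sets outside the range, by group, with 1 symbol per array number, the group mean as a black bar, the additive expectation as a dashed red bar and the lowest value on the arrays (2.14) as a dotted line. The expectation lies below that line for BCAT4 and AT2G10940 and above the values measured with ABA+DFPM for AT1G07690, AT4G21650 and AT4G34320.

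The named called genes nearest to the limits lay 2.04 to 2.22 below log2 5 and 1.25 to 1.79 above log2 12. They are thus not close to the limits. Nearest below log2 5 were AT4G34320, AT2G21820, whose control mean was 2.78 (interaction -3.14), and AT2G16005, with a control mean of 2.96 (-1.93). Beyond log2 12 lay AT5G02230, with means of 5.51, 10.90, 8.41 and 11.05 and an expectation of 13.79 (-2.75), and AT4G30490, with means of 9.48, 11.48, 11.24 and 11.93 and an expectation of 13.25 (-1.31). For both of the latter all measured means were in the range and only the expectation was above it. The call ended without control 2 for AT2G21820 (-3.11, limma adjusted p = 0.0509). It ended for AT2G16005 when any 1 of 8 arrays was left out (all but control 3, ABA 3, DFPM 3 and ABA+DFPM 2), for AT5G02230 any 1 of 10 (all but ABA 3 and ABA+DFPM 2) and for AT4G30490 any 1 of 11 (all but ABA 3), at values of -2.03 to -1.78, -2.84 to -2.49 and -1.36 to -1.20.

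Gene groups were read from 30 lists of annotated genes, with 486 tested probe sets, of which 267 lay in the range. In the range 0 of the 267 were called by limma without the block (0.0105% of all probe sets in the range), 9 had an unadjusted p under 0.05 (3.43% of all), and 3 (1.12%) were called with the block (Hop3, UGT72E2 and TBL45), against 0.315% of all. Over all 486, BCAT4 was the 1 call without the block (0.206%, against 0.375% of all tested) and 13 were called with it (2.67%, against 1.4%). The lists were chosen with earlier results of these data known, so nothing is read from these shares. As a background, the median interaction of all probe sets in the range was -0.01 and 48.4% were positive.

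The ABA-inducible stress and LEA protein genes were mostly outside the range: 6 of 17 tested lay in it, with a median of 0.07, and 0 of 17 were called without the block. COR15A, a chloroplast protein of cold acclimation, had means of 3.07 ± 0.27 in control, 12.68 ± 0.26 with ABA, 2.51 ± 0.64 with DFPM and 9.43 ± 0.56 with both (SD, n = 3 each). Its ABA effect of 9.60 without DFPM was 6.93 with it, an interaction of -2.68 ± 0.51 (limma adjusted p = 0.0641, and 0.0315 with the block). RD2, a desiccation-responsive gene, reached 12.65 with ABA, 12.68 with DFPM and 12.79 with both from a control of 11.05, an interaction of -1.48 ± 0.32 (limma adjusted p = 0.102, and 0.0361 with the block). Other members did not pass in either model: LEA4-5 had -1.02, the dehydrin LTI30 -0.98 and COR47 0.95.

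The plastid-encoded genes, which code for photosystem, ribosome and polymerase subunits made in the chloroplast, had the highest median of the lists with at least 4 members in the range, 0.45 over 37 probe sets (0.28 over all 68 tested). Of these 35 were positive and 22 were positive in all 3 numbers, as were 21.5% of all probe sets in the range, and 0 were called with or without the block and 0 had an unadjusted p under 0.05. The list medians by number were 0.65, 0.31 and 0.31. Without the block, the values in single genes had wide errors. The gene rbcL, for the large subunit of Rubisco, had 0.69 ± 0.52 (0.65, 0.63 and 0.78 by number). The photosystem II gene psbD had 0.73 ± 0.67 and ycf3 1.13 ± 1.00. The 37 share a genome and their transcripts overlap in operons, so they are not independent. Nuclear genes of photosynthesis had a median of 0.19, with 13 of 18 positive.

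Several lists with few members in the range had negative medians. The 4 sugar transporters in the range had a median of -0.74 (-0.10 over all 12 tested), 2 negative and 2 positive, with SWEET2, a vacuolar glucose carrier, at -1.71 ± 0.97. All 6 beta-glucosidases in the range were negative (median -0.56), 4 of them in all 3 numbers, and 0 were called. Outside the range BGLU24 had an interaction of -3.41 ± 0.77, with an ABA effect of 7.46 without DFPM and 4.06 with it (limma adjusted p = 0.13, and 0.0281 with the block), while BGLU27 had 1.80 ± 0.55 and was not called. The 4 glutathione transferases in the range, enzymes that join glutathione to foreign compounds, were all negative (median -0.32), and 0 were called. Over all 10 tested the median was -0.06, with 1 member at -1 or less and 3 at 1 or more. Calcium sensor, channel and calmodulin-binding genes had a median of -0.27 over 7 members in the range, 4 of them negative. By number that median was -0.28, -0.07 and 0.21, and over all 23 tested it was -0.02. Of 8 autophagy genes in the range, most of them ATG8 proteins that coat the autophagosome, 7 were negative with a median of -0.26 and 0 were called. AT5G66930 (ATG101, of the kinase complex that starts autophagy) had -0.66 ± 0.26.

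The list of heat shock and chaperone genes had a median of -0.12 with 9 of 14 negative, and -0.47, -0.27 and 0.02 by number. Hop3 was the 1 member of this list in the range called with the block, and genes not on the list were not counted. Outside the range ATHSP22.0, a small heat shock protein of the endoplasmic reticulum, had 2.23 in control, 7.59 with ABA, 2.33 with DFPM and 3.88 with both, an interaction of -3.82 ± 0.74 (limma adjusted p = 0.0661, and 0.0288 with the block). Of the wall-loosening genes 2 outside the range were called with the block: the expansin-like EXLA2 had an interaction of -2.01 ± 0.37 (limma adjusted p = 0.055, and 0.0226 with the block) and EXLB1 -2.83 ± 0.62 (limma adjusted p = 0.114, and 0.0155 with the block). The ABA effect of EXLA2 was 2.46 without DFPM and 0.45 with it, and that of EXLB1 2.85 and 0.02. The pectin-related GAUT15 (-1.39), the transcription factor bZIP58 (-1.96) and the peroxidase AT5G64120 (1.76) were also called with the block (limma adjusted p = 0.0243, 0.0495 and 0.0495) and not without it.

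The immune receptor and signalling genes had a median of 0.02 in the range, with 7 of 13 positive and 0 called. WRKY53, a defence and senescence transcription factor, had 1.59 ± 0.96, and the immune kinase BIK1 0.07 ± 0.41. The bacterial elongation factor receptor EFR, outside the range, had -1.15 ± 0.27 (limma adjusted p = 0.155, and 0.0702 with the block). Of the short lists, the root hair expansins EXPA7 and EXPA18 had -0.37 ± 0.78 and -0.12 ± 0.49 and STOMAGEN, a peptide that promotes stomata, 0.68 ± 0.90. The reference genes GAPC2, AT4G34270 and AT2G28390 had -0.07 ± 0.39, 0.05 ± 0.19 and 0.13 ± 0.23.

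**Figure D5:**
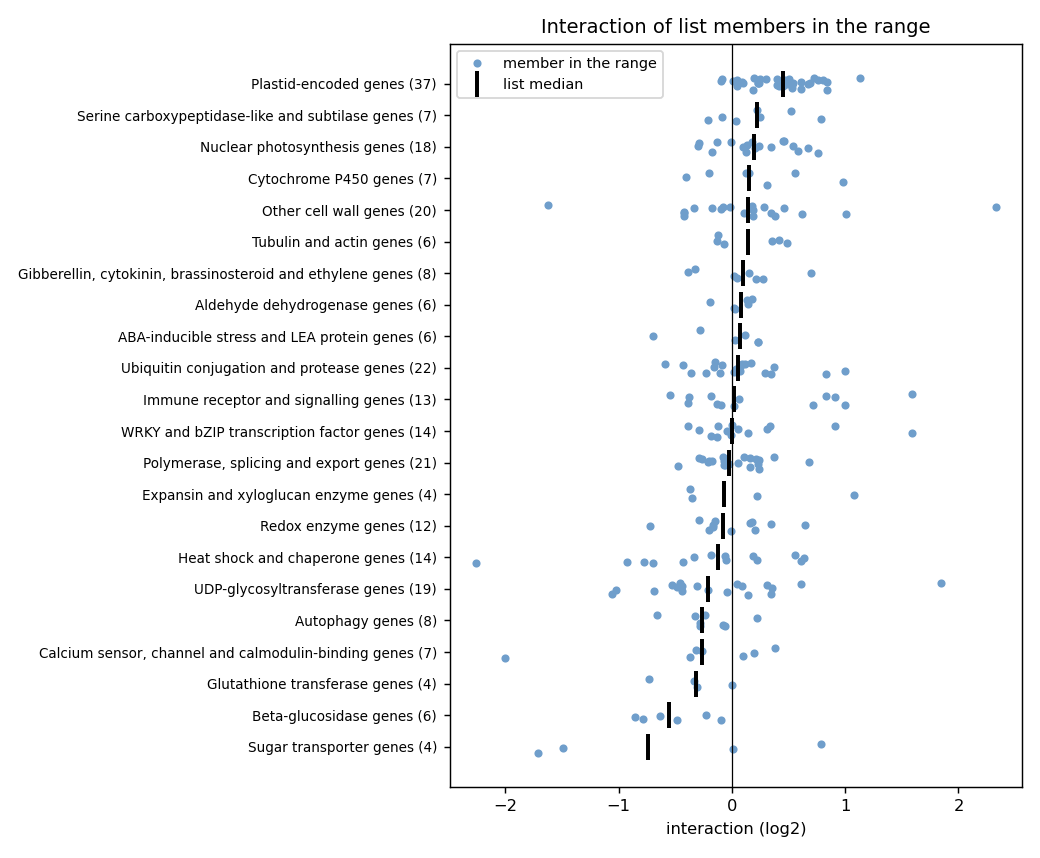
Interaction (log2) of list members in the range, 1 point per probe set, for lists with at least 4 such members (number in brackets), with the list median as a black bar. The plastid-encoded genes have the highest median (0.45) and the sugar transporters the lowest (-0.74), and single members lie from -2.26 (Hop3) to 2.33 (TBL45).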

How the data were processed

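The authors deposited log2 expression values per probe set. The submitters' processing notes name GCRMA and affy, and versions and settings are not given here. The values, from 2.14 to 15.56, were kept as deposited. Of 22810 rows, 64 Affymetrix control probe sets were left out, and probe sets were tested if at least 3 arrays reached log2 4. Gene names came from the platform table and RefSeq (TAIR10.1): 5100 probe sets in the range name 1 gene, 213 several and 4213 none here. 

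Group means were fitted with limma 3.58.1 (R 4.3.3; lmFit, eBayes, two-sided) on all 12 arrays, and p-values were adjusted by Benjamini-Hochberg over all tested probe sets, with calls at 0.05. The fit without the block was tested on simulated data with independent errors. These lack the shared deviations of arrays with the same number, so that test does not cover them. Array deviations from group means correlated in all 18 pairs with the same number (r 0.426 to 0.802), but also between numbers 1 and 2 of different groups (0.38 to 0.701, 12 pairs), against -0.766 to -0.432 for number 3 with 1 or 2, so by the rule used the numbers pair the arrays, though no label says what a number is. Since deviations within a group sum to 0, a shift shared by the arrays numbered 3 alone would give the same signs. Alternatives were the replicate block, numbers 1 and 2 alone or averaged, other filters and ranges, array centring, an intensity trend, and each array left out.

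Among probe sets of 1 gene, 12 in each direction in the range were named, calls first by size and then by smallest unadjusted limma p. As no such probe set was called in the range, all of these were taken by smallest p. Also named were the 5 most extreme calls in each direction outside it, up to 4 called members of each list and all members of short lists. The 3 calls nearest beyond each limit (2 were found above) were added. After values were seen, calls with the block in the range were added, and so were genes with their own symbol by smallest p. Other list members in the text fell under none of these rules, and several were the extremes of their lists in the range. The members and lists were chosen with earlier results of these data known. The 30 lists were rewritten once the annotation coverage was seen, and 2 members, misfiled by symbol, were taken out after their values had been seen (ATCRT1 and MAMI). Promoter and protein sequences were not used here. Python 3.11.15, pandas 2.3.3, numpy 2.4.6 and matplotlib 3.10.9 made the tables and figures.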

Additional observations from a re-analysis of the deposited data

Results flagged for a closer look

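The following 15 probe sets are listed because their ABA effect differed with and without DFPM in the limma test of the interaction (adjusted p under 0.05). Groups of 3 arrays are too small to test single arrays as outliers. The negative interactions were -4.33 for AT1G07690, -3.92 for the unnamed probe set called in the range, -3.90 for AT4G21650, -3.80 for AT5G42290, -3.69 for AT4G34320, -3.62 for AT1G27461, -3.14 for AT2G21820, -2.75 for AT5G02230, -1.93 for AT2G16005 and -1.31 for AT4G30490. The positive interactions were 4.91 for BCAT4, 3.19 for AT5G62280, 3.02 for AT1G14960, 2.73 for AT2G10940 and 2.59 for AT2G43580. Of the 15, that probe set alone lay in the range, and the expectation was below the lowest value on the arrays for BCAT4, AT5G62280, AT1G14960 and AT2G10940.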

How the results depend on the processing

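The count of called interactions, 54 in all and 1 in the range, varied between settings. With the replicate block limma called 202 and 30, from numbers 1 and 2 alone 1251 and 411, and with numbers 1 and 2 averaged and the replicate block 0 and 0 (924 and 271 at an unadjusted p under 0.05). Leaving out 1 array gave 27 to 91 in all (27 without ABA 1, 30 without control 2 or DFPM 2, 33 without DFPM 1, 35 without ABA 2, 91 without control 3) and 0 to 5 in the range (0 without control 1 or 2, ABA 1 or 2, DFPM 2 or ABA+DFPM 1, 3 without ABA 3 or DFPM 3, 5 without control 3). A stricter filter (log2 6) gave 21 in all and no filter 4 in the range. A wider range (log2 4 to 13) held 3 calls and a narrower one (6 to 11) 0, or 61 and 8 with the replicate block, an alternative chosen after seeing the data. The cause of these shifts was not tested. Array centring (54 and 1) and limma-trend (39 and 1) stayed within 1.5 times, and centring shifted the median interaction by 0.004. Of the 15 called probe sets named, all 15 kept their sign under every alternative that tested them (the stricter filter tested 11) and were called with the replicate block and from numbers 1 and 2 alone, and 0 were called with those numbers averaged. Low signal limits the calls outside the range, where an expectation under 2.14 cannot be measured.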
